A study of Mus musculus with 44 samples.

Results

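CD26+ and CD26- cancer-associated fibroblasts (CAFs) of WB1P-Myc mammary tumors were compared by mRNA sequencing. The comparison rests on 16 of the 44 libraries of the series, and all 16 come from the 5 mice whose tumors carried the Myc allele. The other libraries of the series also entered the gene filter, the scaling and the estimate of spread. The deposited counts of the libraries of a mouse were added up by CD26 class, the titles CD26+ and +/+ (double+) giving the CD26+ sum and the titles EN1+ and -/- (double-) the CD26- sum, so that every mouse contributed a pair of sums. The recipients were EN1-Cre;mTmG mice backcrossed to FVB/n, in which Cre expressed from the En1 locus turns a membrane reporter from tdTomato to GFP in the En1 lineage and its descendants. They had been given mammary tissue of donors with WapCre and the conditional alleles Brca1F/F and Trp53F/F, together with Col1a1invCAG-Myc-IRES-Luc (WB1P-Myc), where Cre under a milk-protein promoter removes Brca1 and Trp53 and switches on Myc in mammary epithelium. Brca1, Trp53 and Myc of the recipients were not targeted. Mice with WB1P tissue, which lacks the Myc allele, and mice with control tissue gave the CAFs and normal fibroblasts (NFs) used for comparison, each with 3 to 5 mice and the same EN1-Cre;mTmG genotype. Ages are not given in the labels used here, and the labels mark mice 23 and 69 as 8x8.

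CD26, encoded by Dpp4, is a dipeptidyl peptidase on the cell surface that clips short peptides from chemokines and hormones. In skin and mammary gland it marks interstitial fibroblasts that lie in loose connective tissue and around larger vessels, express Pi16 and Cd34, and are held to have progenitor capacity. CAFs are commonly divided into inflammatory CAFs (iCAFs), which secrete cytokines, complement and hyaluronan, and myofibroblastic CAFs (myCAFs), which carry contractile actin bundles and lay down collagen. Pericytes are mural cells wrapped around capillaries in a basement membrane, depend on PDGF receptor beta and NOTCH3, and share much of the contractile gene set with myCAFs and smooth muscle cells.

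Each library held 9697668 to 15055726 counts, and each sum 11729411 to 29098430. The 2 mice marked 8x8 gave all 4 populations, mouse 21 lacked the EN1+ library, mouse 67 the CD26+ library, and mouse 95 both, so that the sums differ in their share of En1-lineage cells. CD26+ libraries had between 18409 and 19675 genes with a count and CD26- libraries between 19093 and 20658. Values below are counts per 1000000 (CPM) on library sizes scaled by TMM, always listed for mice 21, 23, 67, 69 and 95 in this order, and compared within a gene only. Fold changes are CD26+ over CD26- CAFs on the log2 scale with their standard error (SE), and p-values come from edgeR's quasi-likelihood test with mouse as a block, adjusted by Benjamini-Hochberg over 16601 genes. Genes with an adjusted p under 0.05 are called changed.

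Dpp4 (ENSMUSG00000035000, GRCm38 chromosome 2, 62330073 to 62412231) was measured at 612, 438, 298, 293 and 409 CPM in CD26+ CAFs and at 8.21, 6.901, 2.21, 6.26 and 15.3 CPM in CD26- CAFs. All 5 mice followed the sort, and the lowest CD26+ value was far above the highest CD26- value (log2 fold change 5.89, SE 0.32, adjusted p = 7.13e-08). As the sort selected on CD26, this value checks the labels. Single libraries gave the same picture, with 269.7 CPM as the lowest value among 8 CD26+ libraries and 15.4 CPM as the highest among 8 CD26- libraries. En1, the transcription factor whose locus drives Cre, was at 22.5, 17.4, 11.2, 16.4 and 46.3 CPM in CD26+ against 6.07, 11.05, 7.06, 12.7 and 8.81 CPM in CD26- CAFs (log2 fold change 1.17, SE 0.24, adjusted p = 0.00252), with overlapping classes. The widest gaps were in mice 21 and 95, whose CD26- sums hold no EN1+ library. The log2 fold change of En1 was 0.87 without mouse 95, 1.62 with only the +/+ and -/- libraries and 0.71 with single libraries and a term for the En1 class.

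Marker genes of other cell types were summed for each mouse and class, because the sort removed epithelial, endothelial and blood cells by EpCAM, CD49f, CD31 and CD45, but no marker of mural cells was used. The 11 fibroblast markers added up to 52394 to 92528 CPM in CD26+ against 40839 to 65888 CPM in CD26- CAFs. The 13 pericyte markers added up to 418 to 663 CPM in CD26+ against 2834 to 9804 CPM in CD26- CAFs, and 12 of them fell in CD26+ CAFs, beside 17.0% of all genes that fell and 15.2% that rose. Smooth muscle markers, of which 7 of 8 tested fell, summed to 13.3 to 25.8 CPM against 252 to 699 CPM. Mouse 21 held the highest pericyte sum by a wide margin, the next CD26- sum being 4637 CPM.

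The remaining lists had small sums, whose ranges overlapped between the classes. Within mice, Schwann cell sums were lower in CD26+ CAFs in all 5, immune, epithelial and adipocyte sums in 4, and skeletal muscle sums in 3, while endothelial and mesothelial sums were higher in 4. Most of each CD26+ endothelial sum came from 1 gene, Tek. The other endothelial markers together were lower in CD26+ CAFs in every mouse. Endothelial markers came to 109 to 197 CPM in CD26+ against 51.8 to 243 CPM in CD26- CAFs, immune markers to 22.3 to 256 and 25.2 to 123 CPM, and epithelial markers to 6.27 to 95.5 and 22.0 to 151 CPM. Schwann cell markers summed to 75.2 to 125 and 99.1 to 213 CPM, and adipocyte markers to 6.83 to 35.4 and 24.8 to 146 CPM. Skeletal muscle markers stayed between 2.19 and 17.9 CPM and mesothelial markers between 12.9 and 58.5 CPM in every sum. Of the immune list 11 of 14 genes were lower and 1 was higher in CD26+ CAFs, beside 17.0% and 15.2% of all genes. For the epithelial and tumor list these numbers were 5 and 1 of 14 (1 and 2 without mouse 23), for Schwann cells 4 and 0 of 7, for adipocytes 3 and 0 of 5, for skeletal muscle 2 and 1 of 9, for mesothelium 1 and 1 of 3 and for fibroblasts 2 and 5 of 11. The epithelial and mesothelial lists shared the gene that was higher. Single mice carried some of these counts. Without mouse 95 the Schwann cell numbers were 2 and 1, without mouse 21 those of skeletal muscle were 1 and 0, and without mouse 23 fibroblast genes were higher in 3 cases. The mesothelial gene that was lower was lost without mouse 21 or 69, the immune gene that was higher without mouse 21, 23 or 95, and 1 of the lower fibroblast genes without mouse 21. Rergl, Foxd3, Ckm, Myl1, Pax7, Lep and Lrrn4 had no count in CD26+ sums, and Myod1 and Muc16 none in CD26- sums.

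**Figure D1:**
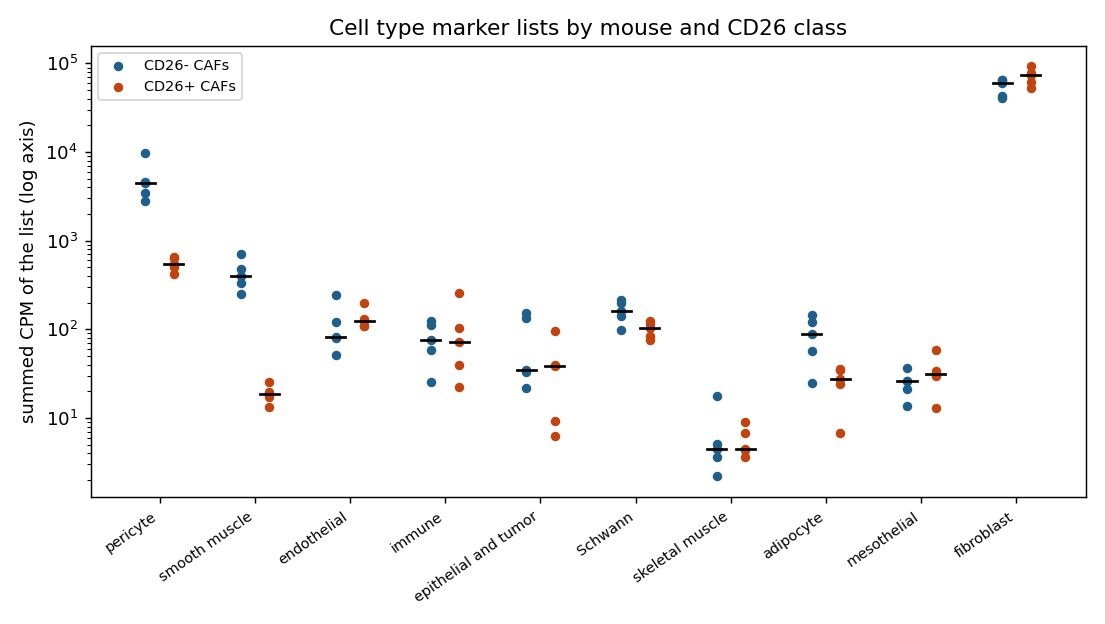
Summed CPM (log axis) of 10 cell type marker lists in CD26- (blue) and CD26+ (orange) CAFs. Points are the 5 WB1P-Myc mice and black lines are medians. The pericyte sums lay between 2834 and 9804 CPM in CD26- and between 418 and 663 CPM in CD26+ CAFs, and the smooth muscle sums were separated as well.

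In all, 5346 of 16601 genes differed between the classes (32.2%), with 2516 rising (15.2%) and 2830 falling (17.0%) in CD26+ CAFs. With an absolute log2 fold change over 2 as a further limit, 339 genes were higher (2.04%) and 902 lower (5.43%). The median fold change of all genes was -0.01. The larger changes were therefore more often decreases in CD26+ CAFs. By the difference of mean CPM the most prominent genes were Fn1, Fbn1, C3, C4b, Col14a1, Col3a1, Fstl1, Igfbp5, Lox and Tnxb on the CD26+ side and Col4a1, Col4a2, Col6a3, Col15a1, Rgs5, Serpine2, Sparcl1, Spon1, Spp1 and Pdgfrb on the CD26- side, most of them genes of the matrix.

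The genes with the largest rise in CD26+ CAFs, apart from Dpp4, were Duox2, Dmkn, Tmem132b, Prrt4, Efhd1, Duox1, Car8, Wnt10b and Smpd3, with fold changes between 4.83 and 6.16. Duox1 and Duox2, neighbours 17222 bases apart on chromosome 2, encode NADPH oxidases that release hydrogen peroxide outside the cell. Duox1 was measured at 156, 104, 140.4, 98.3 and 128 CPM in CD26+ against 2.07, 3.92, 3.76, 2.51 and 8.05 CPM in CD26- CAFs, and no CD26- mouse came near a CD26+ mouse (log2 fold change 5.03, SE 0.30, adjusted p = 1.63e-07). Duox2 was less abundant, with 44.7, 22.1, 64.9, 32.2 and 80.2 CPM against 0.814, 0.226, 0.198, 0.548 and 2.31 CPM (log2 fold change 6.16, SE 0.54, adjusted p = 3.28e-06). Dmkn encodes dermokine, a secreted protein known from stratified epithelium, and had 139, 65.5, 104, 34.2 and 85.6 CPM in CD26+ against 1.92, 3.17, 0.231, 0.776 and 2.17 CPM in CD26- CAFs. Every mouse showed the difference (log2 fold change 5.75, SE 0.43, adjusted p = 9.91e-07). The ion-handling and signalling genes among them were low in absolute terms, Car8 at 25.3 ± 12.6 CPM and Smpd3, a sphingomyelinase, at 29.5 ± 18.3 CPM (mean ± SD, n = 5 mice) in CD26+ CAFs.

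In the opposite direction the rule named Olfr558, Stum, H2-M9, Higd1b, Rgs5, Tmem273, Tbx20, Myh11, Trpc6 and Serpina1b. Several of these are known from mural cells: Rgs5 is a regulator of G protein signalling used as the standard pericyte marker, Higd1b is a mitochondrial gene of pericytes, and Myh11 is the smooth muscle myosin heavy chain. Olfr558, a member of the olfactory receptor family, had 2 counts over all CD26+ sums and 2437 over all CD26- sums, a ratio of 1058 (95% counting interval 293 to 8739). Stum had 2 and 1695 counts (ratio 736, 203 to 6080) and Tbx20, a T-box factor of heart development, 3 and 1026 (ratio 297, 101 to 1442). These intervals cover counting error only. H2-M9 and Serpina1b belong to gene families with close copies, between which reads may be shared, and their values of 36.8 ± 35.3 and 22.6 ± 22.2 CPM in CD26- CAFs are uncertain to that extent.

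Rgs5 stood out by its level, with 4.77, 4.37, 6.93, 2.23 and 11.3 CPM in CD26+ against 4157, 1400, 1402, 1301 and 2084 CPM in CD26- CAFs (log2 fold change -8.47, SE 0.39, adjusted p = 2.46e-08). Mouse 21 was above the other 4 mice in CD26- CAFs. In Trpc6, a cation channel, mouse 21 was highest again, at 166, 26.8, 27.9, 23.2 and 61.1 CPM in CD26- CAFs and at most 0.842 CPM in CD26+ CAFs (log2 fold change -7.86, SE 0.36, adjusted p = 2.46e-08). In bulk samples a lower value can come from fewer cells of a type or from less RNA of the gene per cell, and these cannot be told apart here.

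**Figure D2:**
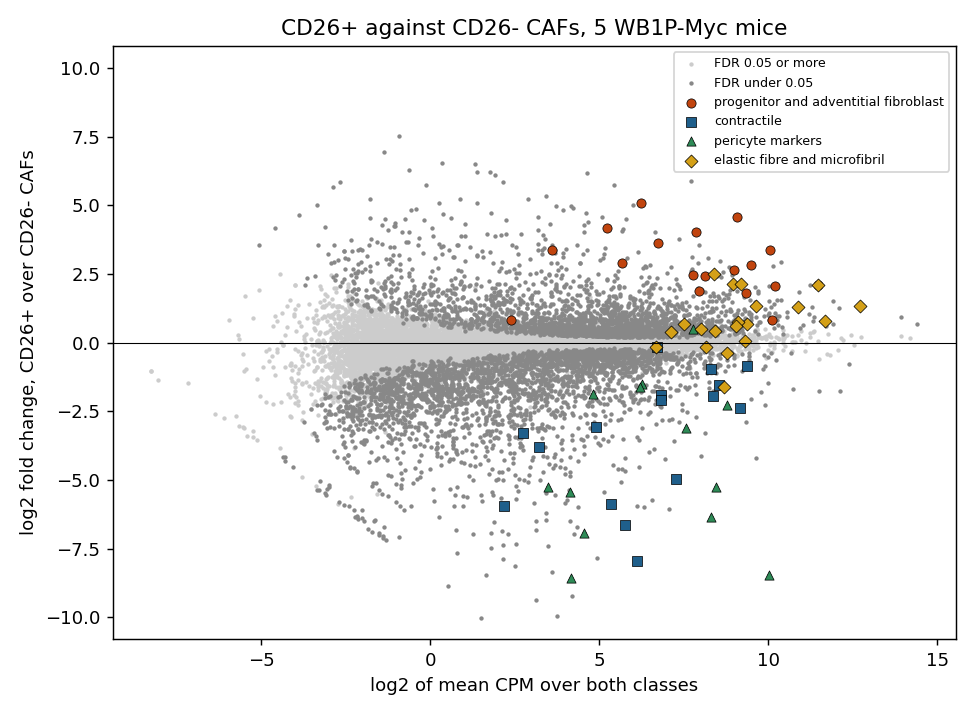
log2 fold change of CD26+ over CD26- CAFs against the log2 of the mean CPM over both classes for the genes tested. Dark grey points have an adjusted p under 0.05. Progenitor genes (orange circles) lie above 0, and contractile genes (blue squares) below 0, as do 12 of 13 pericyte markers (green triangles). Elastic fibre genes (yellow diamonds) are mostly above 0.

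Genes of progenitor and adventitial fibroblasts rose with 1 exception. Of 18 genes on the list, 17 were higher and none was lower in CD26+ CAFs, beside 15.2% and 17.0% of all genes. The median fold change was 2.72 against -0.01 over all genes. As the list was chosen with earlier results of these data known, its count is a description and no independent support. Pi16, a secreted protease inhibitor that defines these cells across organs, was measured at 1826, 1175, 2353, 1667 and 2379 CPM in CD26+ against 121, 48.9, 263, 226 and 469 CPM in CD26- CAFs. The classes were apart in all mice, though CD26- values ranged widely, from mouse 23 at the bottom to mouse 95 at the top (log2 fold change 3.37, SE 0.33, adjusted p = 9.07e-06). Sema3c, a secreted guidance factor, was at 1250.2, 940.3, 1250.4, 668 and 1034 CPM and 25.9, 22.6, 49.6, 59.1 and 79.9 CPM without overlap (log2 fold change 4.56, SE 0.32, adjusted p = 6.13e-07). Cd55, which protects cells from complement, had 520.05, 315, 480.2, 293 and 585 against 20.3, 10.4, 44.3, 34.6 and 34.2 CPM (log2 fold change 4.03, SE 0.26, adjusted p = 3.25e-07). Efhd1, a calcium-binding mitochondrial protein also listed above, had the largest fold of the list (log2 fold change 5.07, SE 0.29, adjusted p = 1.10e-07).

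Cd34, a sialomucin of stromal and vascular progenitors, was at 1425, 1047, 1231, 1075 and 1336 CPM in CD26+ against 168, 42.3, 249, 357 and 224 CPM in CD26- CAFs (log2 fold change 2.81, SE 0.33, adjusted p = 3.61e-05). In Ly6a (Sca-1) the classes overlapped, since mouse 69 had 777 CPM in CD26- CAFs and mouse 23 only 736 CPM in CD26+ CAFs. Within each of the 5 mice Ly6a was nevertheless higher in the CD26+ class (log2 fold change 1.79, SE 0.32, adjusted p = 0.000844). Dpt, which encodes the collagen-binding protein dermatopontin, rose from 529.7 ± 318 to 1834 ± 249 CPM (log2 fold change 2.07, SE 0.36, adjusted p = 0.000736). Cd248 (endosialin), by contrast, was abundant in both classes, at 810.2 ± 162 and 1427 ± 221 CPM (log2 fold change 0.83, SE 0.14, adjusted p = 0.000505). Opcml, Pcsk6, Limch1, Wnt2, Ackr3, Anxa3, Igfbp6, Ly6c1 and Tnxb made up the rest of the 17. Bmp7 did not pass the test, with 7.44, 8.38, 3.96, 4.32 and 6.88 CPM in CD26+ against 2.22, 7.43, 0.594, 2.79 and 8.395 CPM in CD26- CAFs (log2 fold change 0.81, SE 0.52, adjusted p = 0.261).

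**Figure D3:**
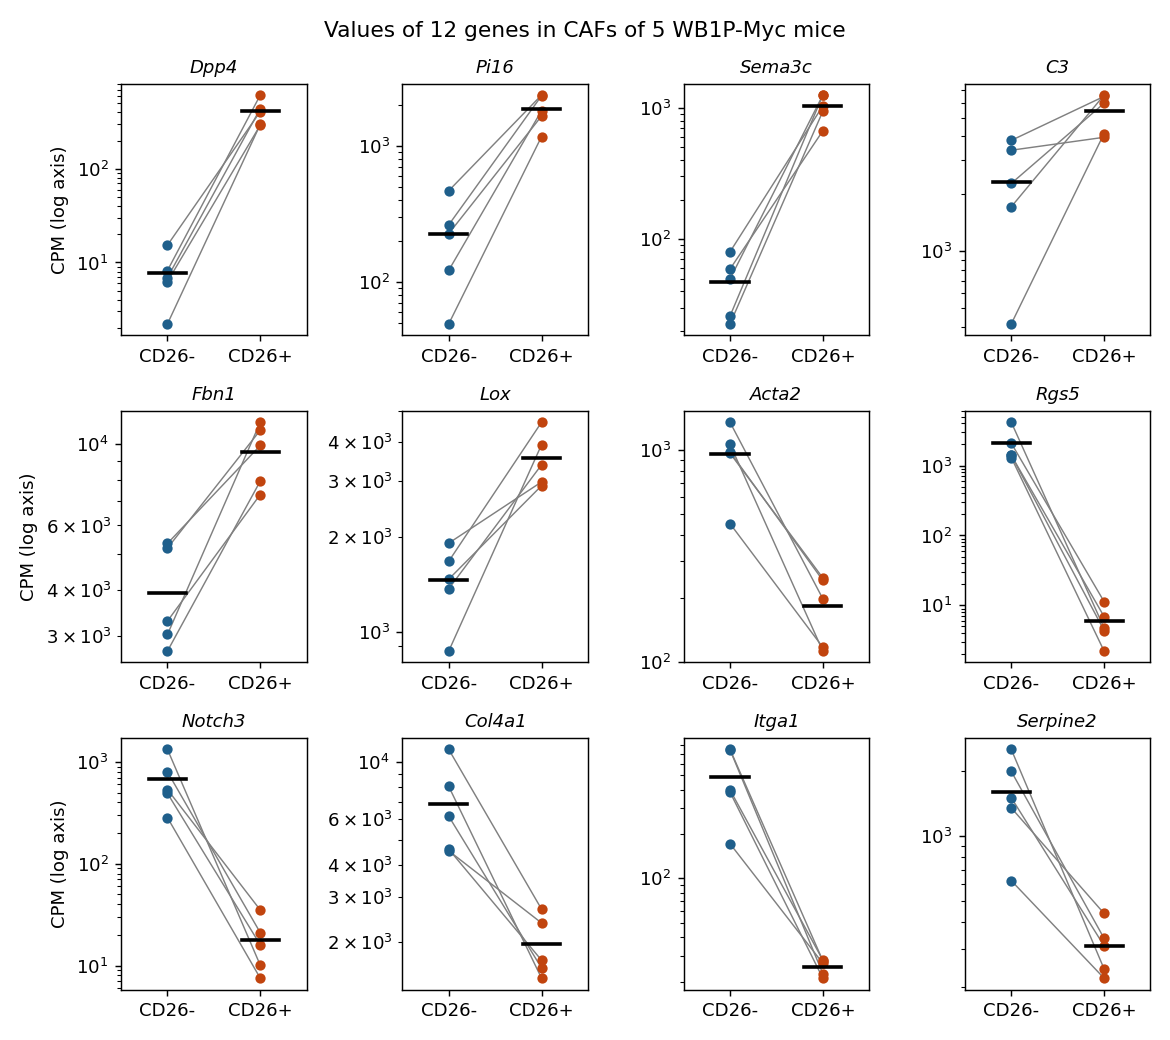
CPM (log axis) of 12 genes in CD26- (blue) and CD26+ (orange) CAFs. Grey lines join the classes of a mouse and black bars are means of 5 mice. The lines of Dpp4, Pi16, Sema3c, C3, Fbn1 and Lox rise in every mouse, and those of Acta2, Rgs5, Notch3, Col4a1, Itga1 and Serpine2 fall in every mouse.

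Elastic fibre and microfibril genes were the second group that was mostly higher in CD26+ CAFs, 13 of 20 rising and 1 falling (median 0.69). Of all genes 15.2% rose and 17.0% fell. Fbn1 encodes fibrillin, the core of microfibrils, and had 11491, 10931, 9929, 7291 and 7933 CPM in CD26+ against 3021, 5203, 5357, 3288 and 2721 CPM in CD26- CAFs. No CD26- mouse reached the lowest CD26+ mouse (log2 fold change 1.32, SE 0.22, adjusted p = 0.000524). Elastin itself, Eln, rose from 1141 ± 485 to 2605 ± 521 CPM (log2 fold change 1.29, SE 0.23, adjusted p = 0.000815). Emilin2, an elastin-associated glycoprotein, varied little among mice, with 1003, 778, 847, 637 and 804 CPM and 168, 185, 183, 242 and 149 CPM (log2 fold change 2.14, SE 0.16, adjusted p = 1.15e-06). Ltbp1, which tethers latent TGF-beta to microfibrils, was at 736, 424, 626, 525 and 466 CPM in CD26+ against 118, 23.04, 132, 171 and 124 CPM in CD26- CAFs, mouse 23 being the lowest of the latter (log2 fold change 2.49, SE 0.30, adjusted p = 4.63e-05). Tnxb, a tenascin of loose connective tissue, rose from 1302 ± 921 to 4334 ± 673 CPM (log2 fold change 2.08, SE 0.38, adjusted p = 0.00105). Mgp, an inhibitor of calcification, was the exception, at 201 ± 95.6 CPM in CD26+ against 631 ± 297 CPM in CD26- CAFs (log2 fold change -1.63, SE 0.31, adjusted p = 0.00141).

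Small leucine-rich proteoglycans, which bind collagen fibrils and space them, had 5 of 11 genes higher and none lower (1 lower, Fmod, without mouse 69). Ogn (osteoglycin) was at 984, 1152, 484, 660.1 and 689.8 CPM in CD26+ against 73.01, 61.6, 155, 217 and 117 CPM in CD26- CAFs and was separated in every mouse (log2 fold change 2.74, SE 0.37, adjusted p = 0.000106). Dcn (decorin), the most abundant of the 5, rose from 1629 ± 732 to 3063 ± 256 CPM (log2 fold change 1.04, SE 0.24, adjusted p = 0.00536). Bgn (biglycan) did not pass the test (log2 fold change -0.09, SE 0.20, adjusted p = 0.77). Among enzymes of collagen crosslinking and processing, 6 of 16 were higher and 1 lower. For both lists the shares over all genes were 15.2% higher and 17.0% lower. Lox, the lysyl oxidase that starts crosslinking, had 3918, 4616, 2987, 2906 and 3384 CPM in CD26+ against 870.3, 1675, 1912, 1469.7 and 1371 CPM in CD26- CAFs, without overlap (log2 fold change 1.31, SE 0.20, adjusted p = 0.000322). Pcolce2, an enhancer of procollagen processing, rose from 54.7 ± 23.6 to 257 ± 62.6 CPM (log2 fold change 2.31, SE 0.22, adjusted p = 6.22e-06). Loxl3 was the member that fell (log2 fold change -0.64, SE 0.18, adjusted p = 0.0169), though not without mouse 67 (adjusted p = 0.054).

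Collagens divided by type. Of 22 fibrillar and short-chain collagen genes 2 were higher, 6 lower and 14 not called (median -0.30), and without mouse 23 only 1 was higher. Over all genes 15.2% were higher and 17.0% lower, so the share of these collagens that was higher lay below that of all genes. The chains of collagen I, the bulk collagen of tumor stroma, did not pass the test, Col1a1 being at 20394, 28299, 16059, 21191 and 14159 CPM in CD26+ against 12817, 23681, 18728, 19857 and 13338 CPM in CD26- CAFs (log2 fold change 0.18, SE 0.17, adjusted p = 0.467). Col14a1, which decorates fibrils in adventitia, was higher, with 5419, 4129, 3609.7, 3115 and 3189 CPM against 804, 608, 1181, 914 and 1021 CPM (log2 fold change 2.11, SE 0.25, adjusted p = 3.99e-05). Col3a1 was called as well (log2 fold change 0.68, SE 0.18, adjusted p = 0.0124), but not without mouse 23 (adjusted p = 0.0603). Col7a1, the anchoring fibril collagen, fell from 273 ± 95.3 to 23.99 ± 9.61 CPM (log2 fold change -3.57, SE 0.34, adjusted p = 5.94e-06). Col6a3, a chain of the pericellular beaded collagen, was at 3884 ± 865 CPM in CD26+ against 6917 ± 2685 CPM in CD26- CAFs (log2 fold change -0.78, SE 0.19, adjusted p = 0.00695). Col10a1, a collagen of hypertrophic cartilage and desmoplastic stroma, was carried by few mice, with 1.18, 448, 23.99, 0.731 and 59.5 CPM in CD26- CAFs and at most 2.87 CPM in CD26+ CAFs (log2 fold change -4.67, SE 0.74, adjusted p = 0.000625).

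Basement membrane genes were split between the classes, 11 of 23 being lower and 6 higher in CD26+ CAFs (median -1.04). Of all genes 17.0% were lower and 15.2% higher. Col4a1 and Col4a2 encode the collagen IV network and overlap by 22 bases at their annotated starts. Col4a1 was at 1442, 2679.8, 1581, 2368 and 1695 CPM in CD26+ against 8058, 11233, 6167, 4521 and 4587 CPM in CD26- CAFs, with all CD26- values above all CD26+ values (log2 fold change -1.78, SE 0.25, adjusted p = 0.000123). Col4a2 gave almost the same change (log2 fold change -1.77, SE 0.23, adjusted p = 8.16e-05). Col15a1 and Col18a1, the multiplexins of vascular basement membranes, fell from 2686 ± 1806 to 741 ± 148 CPM and from 1171 ± 376 to 277 ± 47.996 CPM. Lama5, the laminin chain of mature vessels and epithelia, had 1.73, 2.67, 3.82, 0.818 and 5.44 CPM in CD26+ against 39.9, 34.5, 54.05, 27.1 and 65.1 CPM in CD26- CAFs (log2 fold change -4.06, SE 0.34, adjusted p = 2.33e-06). In contrast Nid1 (nidogen) rose from 1797 ± 281 to 3478 ± 859 CPM (log2 fold change 0.93, SE 0.17, adjusted p = 0.00107), Lama4 from 641 ± 99.8 to 999.6 ± 149 CPM (log2 fold change 0.64, SE 0.13, adjusted p = 0.00228), while Nid2 fell (log2 fold change -1.66, SE 0.18, adjusted p = 1.62e-05).

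Among matricellular genes, whose products modulate adhesion without forming fibres, 10 of 20 rose and 4 fell. The shares of all genes were 15.2% and 17.0%, the latter close to that of the list. Fn1 (fibronectin) was at 26133, 23518, 19252, 16029 and 16791 CPM in CD26+ against 7901, 15982, 13015, 8633 and 8351 CPM in CD26- CAFs (log2 fold change 0.95, SE 0.24, adjusted p = 0.00803), and the lowest CD26+ value, in mouse 69, was close to the highest CD26- value, in mouse 23. Ccn3 rose from 146 ± 141 to 667 ± 171 CPM (log2 fold change 2.57, SE 0.37, adjusted p = 0.000158) and Cthrc1, a secreted marker of collagen-producing fibroblasts, from 125 ± 37.3 to 436 ± 85.2 CPM (log2 fold change 1.84, SE 0.22, adjusted p = 3.78e-05). Sparcl1, a relative of SPARC found in mural cells, fell to 32.1, 35.4, 83.8, 161 and 124 CPM from 2899.6, 1139.5, 1036, 989 and 1467 CPM (log2 fold change -4.21, SE 0.56, adjusted p = 9.12e-05). Spp1 (osteopontin) also fell (log2 fold change -2.88, SE 0.41, adjusted p = 0.000169). Fstl1, a follistatin-like glycoprotein, had 7579, 6247, 5931, 5214 and 5759 CPM in CD26+ against 2068, 2841, 2743, 2918 and 2363 CPM in CD26- CAFs without overlap (log2 fold change 1.25, SE 0.15, adjusted p = 4.77e-05), and Spon1, a spondin that binds matrix, was lower at 541 ± 249 against 1513 ± 703 CPM with overlapping classes (log2 fold change -1.46, SE 0.37, adjusted p = 0.0081). Postn and Tnc, matrix genes linked to myofibroblasts, did not pass the test, with fold changes of 0.27 (SE 0.14, adjusted p = 0.164) and -0.59 (SE 0.33, adjusted p = 0.19).

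Proteases and their inhibitors went both ways, with 8 of 29 higher (5 without mouse 95) and 8 lower, beside 15.2% and 17.0% of all genes. Collagenase Mmp13 was at 62.6, 7.55, 134, 91.2 and 52.5 CPM in CD26+ against 333, 151, 793, 488 and 217 CPM in CD26- CAFs. Mouse 67 was highest and mouse 23 lowest in both classes (log2 fold change -2.71, SE 0.33, adjusted p = 4.42e-05). Stromelysin Mmp10 had 4.38 ± 3.69 against 41.7 ± 11.1 CPM (log2 fold change -3.56, SE 0.40, adjusted p = 2.63e-05). Serpine2 (protease nexin), an inhibitor of thrombin and urokinase, fell in every mouse, from 2002, 2531, 1511, 624 and 1356 CPM in CD26- to 337, 243, 311, 220.2 and 439 CPM in CD26+ CAFs (log2 fold change -2.27, SE 0.24, adjusted p = 1.58e-05). Timp2, a metalloproteinase inhibitor, and Adamts5, an aggrecanase, were higher, at 2070 ± 496 against 959 ± 223 CPM and 606 ± 177 against 211 ± 173 CPM.

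Cytokine genes linked to iCAFs were higher in part. Of 21 tested, 11 rose and 1 fell (median 0.65, none falling without mouse 21), beside 15.2% and 17.0% of all genes. The number that rose was 8 without mouse 95 and 4 without the mouse as a block, and none rose by more than 2 on the log2 scale. Only Has1 had no overlap between classes, against 7.67% of all genes without overlap in this direction. Has1, a hyaluronan synthase, was at 2273, 1729, 939, 1020.3 and 2463 CPM in CD26+ against 526, 421, 480.4, 791 and 853 CPM in CD26- CAFs (log2 fold change 1.41, SE 0.23, adjusted p = 0.000479). The monocyte attractant Ccl2 was at 1659, 1201, 596, 1317 and 1839 CPM and 450.2, 357, 287, 1009 and 927 CPM, with the highest values in mice 69 and 95 for CD26- CAFs (log2 fold change 1.21, SE 0.20, adjusted p = 0.000572). Ccl7 and Ccl8, related attractants, rose by 1.21 (SE 0.27, adjusted p = 0.00393) and 1.47 (SE 0.32, adjusted p = 0.00342). Ptgs2, the inducible cyclooxygenase, rose from 654 ± 204 to 1428 ± 598 CPM (log2 fold change 1.07, SE 0.20, adjusted p = 0.00107).

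Il6, the cytokine most often used to define iCAFs, was at 525, 533, 234, 404 and 1042 CPM in CD26+ against 677, 416, 243, 593 and 1043 CPM in CD26- CAFs and did not pass the test (log2 fold change -0.12, SE 0.16, adjusted p = 0.604). The same held for Cxcl12 (log2 fold change 0.14, SE 0.34, adjusted p = 0.791) and Cxcl2 (log2 fold change 0.49, SE 0.24, adjusted p = 0.132), although Cxcl2 was called without mouse 69 (adjusted p = 0.0229). In Il6 mouse 67 was lowest and mouse 95 highest in both classes. Cxcl14 was the list member that fell (log2 fold change -0.98, SE 0.26, adjusted p = 0.0119), and its call was lost without mouse 21 (adjusted p = 0.0522).

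Complement genes were higher and lower in equal number, 6 and 6 of 18, beside 15.2% and 17.0% of all genes. Without the mouse as a block these numbers were 3 and 2. C3, the central component, was at 6574, 4132, 3949, 6469 and 5957 CPM in CD26+ against 1706, 415, 3378, 3804 and 2262 CPM in CD26- CAFs. Mouse 23 had little C3 in CD26- CAFs, and in mouse 67 the classes were nearly level (log2 fold change 1.51, SE 0.39, adjusted p = 0.00975). C4b rose from 1013 ± 675 to 2809.9 ± 612 CPM (log2 fold change 1.84, SE 0.39, adjusted p = 0.0029) and C1s1, a protease of the classical pathway, from 576 ± 236 to 1023 ± 217 CPM (log2 fold change 0.93, SE 0.19, adjusted p = 0.00219). C7, which joins the membrane attack complex, fell to 2.57, 1.56, 13.4, 38.5 and 7.03 CPM from 45.6, 6.15, 78.6, 91.8 and 79.3 CPM (log2 fold change -2.65, SE 0.40, adjusted p = 0.00023).

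Contractile genes were lower in CD26+ CAFs in 15 of 16 cases and higher in none, beside 17.0% and 15.2% of all genes. Their median fold change was -2.72. Acta2 encodes smooth muscle actin, the standard marker of myCAFs, and was at 113, 199, 249.97, 118 and 243 CPM in CD26+ against 1065, 1353, 967, 451 and 980.5 CPM in CD26- CAFs. Mouse 69 was the lowest of the CD26- sums and still above every CD26+ sum (log2 fold change -2.38, SE 0.29, adjusted p = 5.13e-05). Tagln (transgelin) fell from 519 ± 243 to 139 ± 72.8 CPM (log2 fold change -1.94, SE 0.27, adjusted p = 0.000128) and Cald1 (caldesmon) from 865 ± 254 to 465 ± 47.5 CPM (log2 fold change -0.85, SE 0.17, adjusted p = 0.00191). Larger folds were seen for Myh11 and Des. Myh11 had 0.374, 0.828, 0.424, 0.545 and 0.227 CPM in CD26+ against 249, 61.8, 123, 105 and 161 CPM in CD26- CAFs (log2 fold change -7.97, SE 0.41, adjusted p = 5.98e-08), and Des (desmin) 0.702, 0.874, 1.56, 0.318 and 2.19 and 205, 69.3, 92.7, 55.996 and 116 CPM (log2 fold change -6.62, SE 0.39, adjusted p = 1.43e-07). Mylk, the kinase of the myosin light chain, and its substrate Myl9 fell by different amounts, Mylk from 297 ± 179 to 9.296 ± 4.96 CPM (log2 fold change -4.98, SE 0.38, adjusted p = 1.03e-06) and Myl9 from 179 ± 35.99 to 48.6 ± 12.6 CPM (log2 fold change -1.89, SE 0.21, adjusted p = 2.33e-05). Smtn (smoothelin) did not pass the test, with 99.4 ± 10.02 and 112 ± 12.5 CPM (log2 fold change -0.17, SE 0.09, adjusted p = 0.189).

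Genes of this list are known targets of serum response factor, which binds the CArG box. Promoters of Myl9 and Acta2 are shown because only these 2 of 13 searched held the box or a near match. Actg2, Myh11 and Tagln had no promoter to search. The bases are the 250 upstream of the RefSeq start on the gene's strand in GRCm38.p6, with CArG boxes and near matches that differ from it by a single middle base in capitals.
Myl9 (chr2:156775214-156775463, plus strand): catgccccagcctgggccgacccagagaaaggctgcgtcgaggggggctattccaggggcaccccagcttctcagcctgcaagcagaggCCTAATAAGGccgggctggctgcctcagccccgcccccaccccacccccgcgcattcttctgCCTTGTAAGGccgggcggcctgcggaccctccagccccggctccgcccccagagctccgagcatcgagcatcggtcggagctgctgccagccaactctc
Acta2 (chr19:34255374-34255623, minus strand): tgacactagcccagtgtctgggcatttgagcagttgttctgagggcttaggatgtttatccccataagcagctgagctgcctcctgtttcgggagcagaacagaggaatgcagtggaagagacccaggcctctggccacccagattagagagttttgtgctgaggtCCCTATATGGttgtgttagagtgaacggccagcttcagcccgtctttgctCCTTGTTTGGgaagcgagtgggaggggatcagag
Myl9 held a full match that began 161 bases upstream of the start and a near match 99 bases upstream. Acta2 held near matches 84 and 34 bases upstream. Of 13 contractile genes with a promoter in the RefSeq table, 1 (Myl9) had a full match, against 1.81% of 27025 genes, and 2 (Myl9 and Acta2) had a full or near match, against 11.3% of all genes. The near match was added after the sequences had been seen. Both strands read alike for this box, and a match is a description of the letters only.

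Pericyte markers were low in CD26+ CAFs to varying degrees. Mcam (CD146), an adhesion molecule of mural and endothelial cells, was at 4.396, 8.97, 20.2, 2.09 and 8.39 CPM in CD26+ against 1011, 879, 432, 253 and 551 CPM in CD26- CAFs (log2 fold change -6.35, SE 0.42, adjusted p = 3.97e-07). Gja4, a gap junction protein of vessels, fell from 46.9 ± 27.5 to 0.385 ± 0.203 CPM (log2 fold change -6.93, SE 0.37, adjusted p = 6.58e-08), and Cspg4 (NG2) from 346 ± 189.7 to 37.5 ± 22.3 CPM (log2 fold change -3.12, SE 0.37, adjusted p = 3.93e-05). Abcc9 and Kcnj8, which form the potassium channel of pericytes, kept sizeable levels in CD26+ CAFs. Abcc9 was at 183, 67.7, 126, 199 and 95.01 CPM in CD26+ against 1869.6, 519.7, 358, 359.5 and 624 CPM in CD26- CAFs (log2 fold change -2.29, SE 0.36, adjusted p = 0.00033), and Kcnj8 at 43.6, 20.2, 48.7, 45.5 and 26.2 and 270.1, 71.2, 56.2, 82.1 and 110.4 CPM (log2 fold change -1.52, SE 0.30, adjusted p = 0.00168). Steap4, a metalloreductase, was at 252 ± 81.996 and 185 ± 79.1 CPM and not called (log2 fold change 0.49, SE 0.31, adjusted p = 0.259). Pdgfrb, the receptor of pericytes and of many fibroblasts, fell from 1385 ± 488 to 382 ± 62.1 CPM (log2 fold change -1.80, SE 0.22, adjusted p = 4.80e-05).

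Genes of the endothelial list were also divided, 5 of 10 being lower and 2 higher in CD26+ CAFs, beside 17.0% and 15.2% of all genes. Emcn and Esam, surface proteins of vessels, were at 0.187, 0.322, 0.212, 0.227 and 0.302 and 2.105, 0.967, 1.202, 1.32 and 1.66 CPM in CD26+ CAFs and at 50.7, 11.05, 8.05, 15.2 and 20.99 and 159, 40.5, 30.7, 47.6 and 70.6 CPM in CD26- CAFs. Both fell in every mouse, Emcn with a fold change of -6.21 (adjusted p = 4.04e-07) and Esam with -5.44 (adjusted p = 5.10e-08). The defining endothelial genes Pecam1 and Cdh5 were at or below 9.96 and 6.81 CPM in all sums and were not called, except that Cdh5 passed as lower without mouse 67 (adjusted p = 0.0203) or 69 (adjusted p = 0.0213). Tek, the angiopoietin receptor TIE2, was instead higher in CD26+ CAFs, at 158, 100.01, 96.9, 79.3 and 103 CPM against 3.18, 5.54, 4.62, 4.93 and 4.69 CPM (log2 fold change 4.49, SE 0.29, adjusted p = 3.43e-07). Its ligand Angpt2 was higher in CD26- CAFs, with 30.8 ± 23.2 against 0.991 ± 0.5001 CPM (log2 fold change -4.80, SE 0.43, adjusted p = 3.86e-06), as was Angpt1 (log2 fold change -1.66, SE 0.28, adjusted p = 0.000597).

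Notch genes were lower in 11 of 15 cases and higher in 2 (median -1.67), of which 1 was left without mouse 23 or 95. Of all genes 17.0% were lower and 15.2% higher, the latter close to the share of the list. Among the receptors, Notch3 had 10.1, 20.99, 35.1, 7.5002 and 15.9 CPM in CD26+ against 1326, 797, 535, 283 and 491 CPM in CD26- CAFs (log2 fold change -5.25, SE 0.36, adjusted p = 5.16e-07), and Notch1 fell from 166 ± 70.5 to 33.6 ± 8.67 CPM (log2 fold change -2.22, SE 0.25, adjusted p = 2.55e-05). Notch2 was higher in CD26+ CAFs, at 191, 155, 147, 140.2 and 152 against 78.9, 81.8, 101, 102 and 91.6 CPM (log2 fold change 0.78, SE 0.16, adjusted p = 0.00213). Of the pathway's common targets on the list, Nrarp, Hey1, Hey2 and Heyl fell, while Hes1 rose (log2 fold change 0.44, SE 0.13, adjusted p = 0.016; not called without mouse 23 or 95, or without the mouse as a block). Nrarp, a feedback inhibitor, was at 0.0468, 0.184, 1.06, 0.0455 and 0.831 CPM in CD26+ against 55.2, 30.1, 15.3, 23.8 and 49.1 CPM in CD26- CAFs (log2 fold change -6.49, SE 0.59, adjusted p = 4.49e-06), Hey2 at 0.161 ± 0.0651 and 8.496 ± 4.21 CPM (log2 fold change -5.66, SE 0.41, adjusted p = 8.56e-07), and Heyl at 25.04 ± 15.004 and 179 ± 114 CPM (log2 fold change -2.98, SE 0.31, adjusted p = 1.22e-05). The ligand Jag1 was at 153 ± 39.3 and 189.9 ± 61.9 CPM and not called (log2 fold change -0.29, SE 0.20, adjusted p = 0.29).

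Pericyte marker sums fell from CD26- to CD26+ CAFs in each mouse, and most contractile and Notch genes above fell too. Basement membrane genes went both ways, with 11 of 23 lower and 6 higher. Whether any of these genes followed the pericyte sums from mouse to mouse was not tested. The part of pericytes in these results was not tested either.

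**Figure D4:**
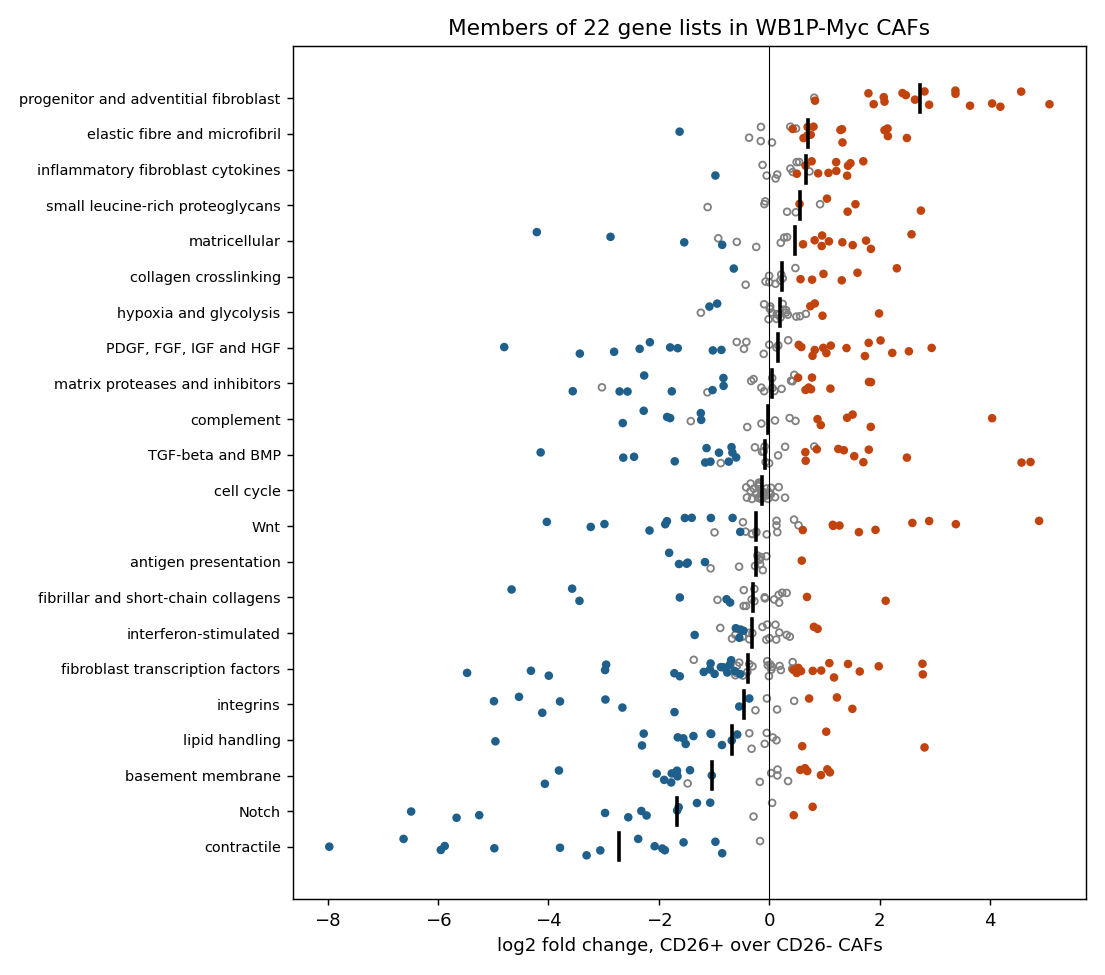
log2 fold changes of the members of 22 gene lists, ordered by median (black bars). Orange and blue points are genes higher and lower in CD26+ CAFs at an adjusted p under 0.05, and open points were not called. The contractile (median -2.72) and Notch (-1.67) lists lie lowest and the progenitor list (2.72) highest, and all 28 cell cycle genes are open points.

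Of 33 genes of TGF-beta and BMP signalling, 11 rose and 12 fell, against 15.2% and 17.0% of all genes. The ligands differed in direction. Bmp6 was at 53.9, 34.7, 71.3, 23.6 and 54.3 CPM in CD26+ against 0.888, 1.998, 0.792, 1.42 and 4.198 CPM in CD26- CAFs (log2 fold change 4.73, SE 0.39, adjusted p = 1.81e-06) and Bmp3, an antagonistic family member, at 110.3, 63.5, 86.2, 32.2 and 31.8 and 1.18, 1.96, 8.08, 0.594 and 3.43 CPM (log2 fold change 4.57, SE 0.54, adjusted p = 3.81e-05). Both were separated in all mice. Tgfb1 fell from 153 ± 68.8 to 66.5 ± 22.1 CPM (log2 fold change -1.14, SE 0.24, adjusted p = 0.00237), and Inhba, the activin A subunit, from 132, 583, 211, 191 and 379 to 73.2, 31.1, 25.2, 50.9 and 78.2 CPM (log2 fold change -2.45, SE 0.41, adjusted p = 0.000501), with the highest CD26- value in mouse 23. The receptor Tgfbr2 was higher in CD26+ CAFs, at 2277, 1980.2, 1571, 1763 and 1523 against 521, 505, 729, 819 and 587 CPM (log2 fold change 1.54, SE 0.21, adjusted p = 0.000107), and so was the co-receptor Tgfbr3 (log2 fold change 1.70, SE 0.27, adjusted p = 0.000413). Of the antagonists, Grem1 fell (log2 fold change -2.65, SE 0.23, adjusted p = 2.86e-06) and Fst (follistatin) rose (log2 fold change 1.35, SE 0.21, adjusted p = 0.000318). Id1, a target of BMP signalling, was lower at 4.02 ± 1.92 against 12.3 ± 3.98 CPM (log2 fold change -1.71, SE 0.24, adjusted p = 0.000131).

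Wnt genes were higher in 10 and lower in 11 of 34 cases, beside 15.2% and 17.0% of all genes. Wnt10b was at 52.4, 11.9, 38.04, 18.7 and 58.7 CPM in CD26+ against 1.33, 0.151, 0.429, 2.06 and 2.52 CPM in CD26- CAFs (log2 fold change 4.88, SE 0.36, adjusted p = 9.53e-07), and Wnt2 at 89.3 ± 22.6 and 12.6 ± 5.25 CPM (log2 fold change 2.89, SE 0.28, adjusted p = 7.39e-06). Wnt16 was more variable, with 26.5, 30.9, 17.04, 13 and 3.33 CPM in CD26+ against 2.15, 1.13, 2.74, 2.15 and 0.2798 CPM in CD26- CAFs (log2 fold change 3.38, SE 0.41, adjusted p = 4.14e-05). Mouse 95 had the lowest Wnt16 value of each class. Wnt5a, a ligand of the non-canonical branch, fell in every mouse, to 23.8, 18.6, 19.5, 33.8 and 20.9 from 137, 104, 131, 74.7 and 79.97 CPM (log2 fold change -2.17, SE 0.20, adjusted p = 3.97e-06), together with the receptor-like kinase Ptk7 (log2 fold change -1.89, SE 0.22, adjusted p = 3.16e-05). Secreted antagonists did not move together, Sfrp4 rising (log2 fold change 1.92, SE 0.35, adjusted p = 0.000958) and Frzb falling (log2 fold change -4.03, SE 0.40, adjusted p = 9.07e-06). Axin2, the general target of the canonical branch, did not pass the test (log2 fold change 0.45, SE 0.26, adjusted p = 0.214).

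Growth factor genes of the PDGF, FGF, IGF, HGF and VEGF families numbered 14 higher (9 without mouse 21 or 23) and 9 lower of 31. Of all genes 15.2% were higher and 17.0% lower. Pdgfa fell from 93.1, 59.7, 47.8, 27.2 and 121 CPM in CD26- to 10.4, 5.25, 10.3, 5.0001 and 18.4 CPM in CD26+ CAFs (log2 fold change -2.81, SE 0.23, adjusted p = 1.81e-06), and Pdgfd rose from 21.01 ± 6.08 to 85.1 ± 22.02 CPM (log2 fold change 2.01, SE 0.24, adjusted p = 4.24e-05). Fgf2 (log2 fold change 1.80, SE 0.20, adjusted p = 1.96e-05) and Fgf18 (log2 fold change 2.22, SE 0.24, adjusted p = 1.81e-05) were higher in CD26+ CAFs, as was the lymphatic growth factor Vegfd (log2 fold change 2.53, SE 0.36, adjusted p = 0.000144). Igfbp5, which binds insulin-like growth factors, was the most abundant riser, at 3011, 883, 3029.7, 1824 and 3130.4 CPM in CD26+ against 206, 164, 253, 367 and 546 CPM in CD26- CAFs (log2 fold change 2.94, SE 0.30, adjusted p = 1.13e-05), with mouse 23 lowest in both classes. Vegfa did not pass the test (log2 fold change 0.13, SE 0.19, adjusted p = 0.655).

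Integrin genes were lower in 9 and higher in 3 of 16 cases, beside 17.0% and 15.2% of all genes. The share that was higher was close to that of all genes. Itga1, which with beta1 forms a collagen IV receptor, was at 22.6, 27.7, 21.1, 26.6 and 27.96 CPM in CD26+ CAFs, with hardly any spread, and at 744, 748, 384, 172 and 397 CPM in CD26- CAFs (log2 fold change -4.11, SE 0.29, adjusted p = 7.34e-07). Itga7, a laminin receptor of muscle, fell from 139.8 ± 84.4 to 6.16 ± 4.55 CPM (log2 fold change -4.53, SE 0.34, adjusted p = 1.03e-06), and Itga4, a receptor of fibronectin and VCAM1, from 13.1 ± 7.08 to 0.493 ± 0.805 CPM (log2 fold change -4.99, SE 0.60, adjusted p = 4.16e-05). The shared subunit Itgb1 was at 950.4 ± 95.8 and 1228 ± 166 CPM (log2 fold change -0.36, SE 0.10, adjusted p = 0.0125), a small change beside those of its partners. Itgb3 rose (log2 fold change 1.22, SE 0.16, adjusted p = 6.52e-05).

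Of 50 transcription factor genes of fibroblasts, 13 were higher and 18 lower, beside 15.2% and 17.0% of all genes. Creb5 was at 173, 177, 122, 105 and 135 CPM in CD26+ against 20.9, 13.3, 20.4, 21.2 and 28.3 CPM in CD26- CAFs, without overlap (log2 fold change 2.78, SE 0.28, adjusted p = 1.15e-05). Osr2, an odd-skipped zinc finger factor of connective tissue, rose from 20.2 ± 7.31 to 76.9 ± 11.2 CPM (log2 fold change 1.98, SE 0.26, adjusted p = 7.96e-05) and Ebf2 from 62.8 ± 10.02 to 121 ± 23.1 CPM (log2 fold change 0.94, SE 0.17, adjusted p = 0.000972). Foxc2, a forkhead factor of vessels and mesenchyme, was at 0.234, 0.322, 0.919, 0.0909 and 0.907 CPM in CD26+ against 29.96, 31.9, 8.74, 8.86 and 25.3 CPM in CD26- CAFs (log2 fold change -5.47, SE 0.45, adjusted p = 1.78e-06). Tbx2 and Tbx3, related T-box repressors, fell by 4.32 (SE 0.41, adjusted p = 6.35e-06) and 2.96 (SE 0.27, adjusted p = 4.19e-06) on the log2 scale. Myocd (myocardin), the coactivator of smooth muscle genes, was low in both classes, at 0.1403, 0.828, 0, 0.0455 and 0.227 and 3.48, 5.17, 3.83, 1.74 and 3.71 CPM, and fell in every mouse (log2 fold change -3.99, SE 0.51, adjusted p = 6.28e-05). The general mesenchymal factor Twist1 was not called (log2 fold change 0.18, SE 0.11, adjusted p = 0.248).

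None of 28 cell cycle genes was called in either direction by edgeR, where 0 had an unadjusted p under 0.05, or by DESeq2, and their fold changes lay between -0.42 and 0.28. Mki67 was at 48.2, 133, 58.7, 136 and 85.7 CPM in CD26+ against 130.3, 122, 72.1, 129 and 131 CPM in CD26- CAFs (log2 fold change -0.42, SE 0.25, adjusted p = 0.218), with overlapping classes. Hypoxia and glycolysis genes were higher in 4 (2 without mouse 21) and lower in 2 (1 without mouse 95) of 25 cases, shares close to the 15.2% of all genes that rose and below the 17.0% that fell, and Adm (adrenomedullin) had the largest rise (log2 fold change 1.99, SE 0.39, adjusted p = 0.00154). Interferon-stimulated genes were higher in 2 and lower in 5 of 23 cases, the former below the share of all genes and the latter near it, and these numbers turned on single mice. Between 0 and 4 were higher and between 2 and 11 lower when each of the 5 mice was left out, the 0 without mouse 21, the 4 without mouse 23 and the 11 without mouse 69. Antigen presentation genes were lower in 5 (3 without mouse 21 or 23) and higher in 1 (0 without mouse 21, 23 or 69) of 16, and the class II invariant chain Cd74 was among those that fell, at 12.2 ± 7.904 against 45.4 ± 32.2 CPM (log2 fold change -1.81, SE 0.35, adjusted p = 0.00143). The summed immune markers were lower in CD26+ CAFs in 4 of 5 mice, mouse 23 being the exception with 256 against 57.7 CPM, and their part in this result was not tested.

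Lipid-handling genes were lower in 12 (8 to 10 when each mouse was left out) and higher in 3 (1 without mouse 21 or 95) of 21 cases. Of all genes 17.0% were lower and 15.2% higher. The summed adipocyte markers, which share Adipoq and Fabp4 with this list, were also lower in CD26+ CAFs in 4 of 5 mice, with 27.4 against 24.8 CPM in mouse 23, and their part in this result was not tested. Cd36, a fatty acid transporter, was at 1.78, 0.9205, 17.5, 28.95 and 2.65 CPM in CD26+ against 20.2, 5.35, 83.8, 84.8 and 10.9 CPM in CD26- CAFs (log2 fold change -2.31, SE 0.29, adjusted p = 5.40e-05), with mice 67 and 69 far above the other 3 in both classes. Adipoq, the hormone of mature fat cells, had 3 counts in all CD26+ sums and 101 in all CD26- sums (ratio 29.2, 95% counting interval 9.72 to 144). Ptgis, the prostacyclin synthase, was higher in CD26+ CAFs, at 144, 244, 146, 104 and 152 against 25.4, 43.4, 16.4, 11.6 and 22.7 CPM (log2 fold change 2.81, SE 0.22, adjusted p = 1.46e-06). S100a4, used as a fibroblast gene, was low in both classes and rose from 3.67 ± 1.15 to 6.64 ± 0.746 CPM (log2 fold change 0.91, SE 0.23, adjusted p = 0.00938). Anxa5, which the study lists among genes expressed by CD26- NFs, rose from 413 ± 46.4 to 588 ± 79.2 CPM (log2 fold change 0.51, SE 0.12, adjusted p = 0.0056). It was not called without the mouse as a block (adjusted p = 0.0772).

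The CD26 difference in WB1P-Myc tumors was then set against that in WB1P tumors, measured in 4 other mice with both classes. There 5833 genes were called (35.1%), 2863 higher (17.2%) and 2970 lower (17.9%). Of the genes called in WB1P-Myc CAFs 3905 were also called in the same direction in WB1P CAFs, which is 73.0% of the WB1P-Myc and 66.9% of the WB1P calls, and 1 was called in the opposite direction. No gene had a CD26 difference that differed between the tumor types in edgeR's test of the difference itself, at which 1394 genes (8.4%) had an unadjusted p under 0.05, and DESeq2's test called 100. For Acta2 the fold change was -2.38 in WB1P-Myc and -2.50 in WB1P CAFs, for Pi16 3.37 and 3.90, and for Col4a1 -1.78 and -2.02.

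The same comparison in NFs of 3 control replicates called 1916 genes (11.5%), of which 1312 were called in the same direction in WB1P-Myc CAFs and 48 in the opposite direction. The difference itself passed the test for 523 genes (3.15%), 180 with a higher (1.08%) and 343 with a lower value (2.07%) in WB1P-Myc CAFs. The NF values rest on 3 control replicates, each labelled with a pair of mouse numbers, and those of WB1P-Myc CAFs on 5 mice. Of the 18 progenitor genes 14 were higher and none was lower in NFs, and the difference from WB1P-Myc CAFs passed the test for 3. That of Wnt2 was 2.15 (adjusted p = 0.0163), of Limch1 -3.06 (adjusted p = 0.00222) and of Anxa3 -1.50 (adjusted p = 0.049). Without control replicate 44+46 those of Wnt2 and Anxa3 were no longer called (adjusted p = 0.106 and adjusted p = 0.236). Pi16 had a log2 fold change of 2.79 and Sema3c of 5.00 in NFs, with differences that were not called (adjusted p = 0.619 and adjusted p = 0.684). Rgs5 differed in size. In NFs it was at 5.81 ± 1.73 CPM in CD26+ and 27.9 ± 11.7 CPM in CD26- cells (SD, n = 3), and the difference of fold changes was -6.26 (SE 0.52, adjusted p = 7.20e-05).

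Notch3 and Itga1 behaved alike, with fold changes in NFs of -0.91 and -0.75 and differences of -4.34 (adjusted p = 0.000498) and -3.36 (adjusted p = 0.000974). Serpine2 fell in WB1P-Myc CAFs, but in NFs its fold change was 0.71 (SE 0.30), and the difference passed the test (-2.98, adjusted p = 0.000969). Lox and Cthrc1 rose in WB1P-Myc CAFs and had fold changes of -0.64 and -0.35 in NFs, with differences of 1.95 (adjusted p = 0.00589) and 2.18 (adjusted p = 0.00438).

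Among the genes with the largest differences from NFs, Megf6 was higher in CD26+ CAFs but lower in CD26+ NFs. It had 39.4, 15.1, 21.8, 138 and 44.6 CPM in CD26+ against 19.01, 4.45, 12.6, 69.9 and 32.5 CPM in CD26- CAFs (log2 fold change 0.99, SE 0.19, adjusted p = 0.00142), and 11.6 ± 13.4 and 104 ± 112 CPM in NFs (fold change -3.41, adjusted p = 7.20e-06). Adamts16, a protease of the ADAMTS family, was called in NFs and not in CAFs, at 54.2 ± 31.98 CPM in CD26+ and 0.131 ± 0.0778 CPM in CD26- NFs, against 48.1 ± 20.2 and 42.01 ± 35.5 CPM in CAFs, and the difference was -8.16 (adjusted p = 0.000432). Kcnn3 and Wnt16 rose in CAFs and were not called in NFs, with differences of 3.78 (adjusted p = 0.000969) and 3.77 (adjusted p = 0.0056). Aqp1, the water channel, fell in NFs and was not called in CAFs (difference 3.88, adjusted p = 0.0014). Olfr558 and Stum had differences of -7.74 and -8.17 (adjusted p = 0.00186 and 0.000432), Spock3 of -8.05 (adjusted p = 0.0067). Nrk (4.39, adjusted p = 0.0381) lost its call without mouse 21, 23 or 67, without each of the control replicates and without the 2 mice marked 8x8. In these fits its adjusted p was between 0.0618 and 0.132. Tbx20 (-11.40, adjusted p = 0.0145) lost its call without control replicate 44+46 (adjusted p = 0.0516) or 82+83 (adjusted p = 0.0934), and with only the +/+ and -/- libraries (adjusted p = 0.127).

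**Figure D5:**
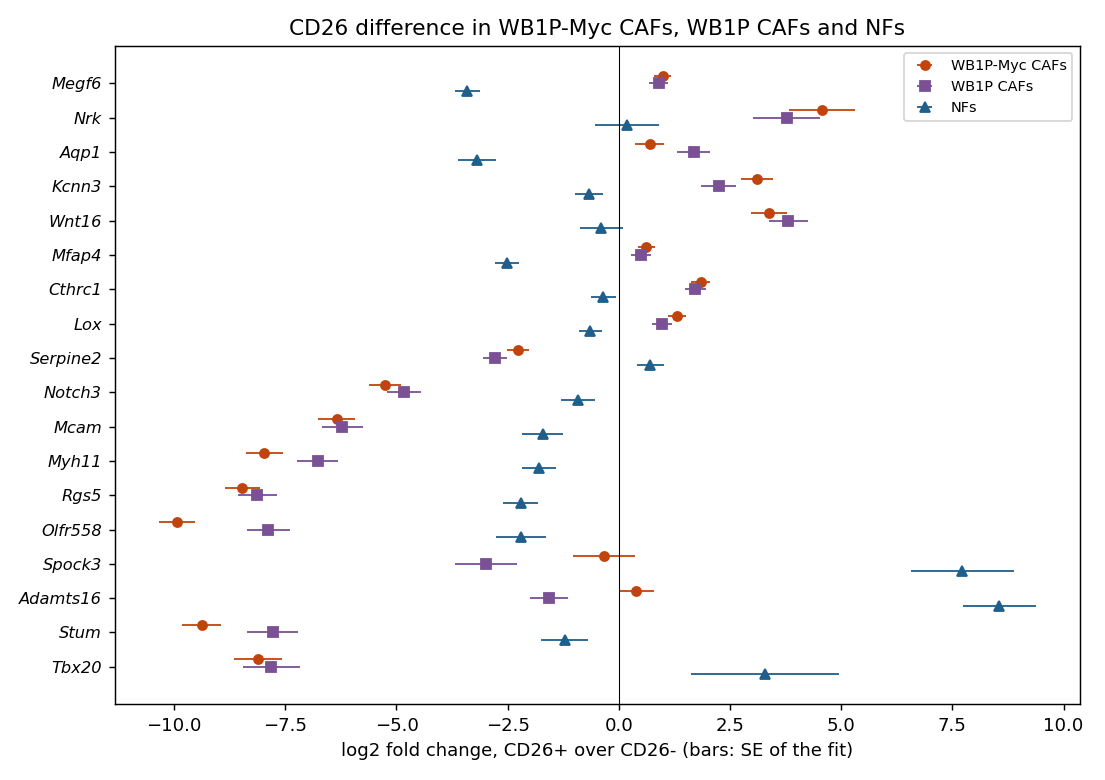
log2 fold change of CD26+ over CD26- (points, with the SE of the fit as bars) in WB1P-Myc CAFs, WB1P CAFs and NFs for 10 genes with the largest differences from NFs and 8 genes chosen from the lists. WB1P-Myc and WB1P points lie close together, while NF points of Rgs5, Notch3, Myh11 and Mcam are nearer 0 and that of Megf6 is on the other side of 0.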

How the data were processed

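Libraries were poly(A)-selected and strand-specific, from RNA of sorted fibroblasts. The labels name HiSeq and NovaSeq instruments, the study's methods describe single-end reads for the former and paired-end reads for the latter, and which libraries ran on which is not given in the sources used here. The authors deposited raw gene counts in 1 table, and the submitters' processing notes name HISAT2 2.2.1 and GRCm38. The counting tool and its strand setting are not given in the sources used here, so reads of overlapping and antisense genes cannot be separated. The table had 55486 gene identifiers, of which 54906 had the same start and end in GENCODE M21.

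Counts were summed by mouse and CD26 class as titled. The 25 sums of 13 replicates (control, WB1P and WB1P-Myc) were fitted together in edgeR 4.0.16 (R 4.3.3, limma 3.58.1). The fit used filterByExpr, TMM scaling, mouse or control replicate as a block and a CD26 term for each transplant. Quasi-likelihood tests were adjusted by Benjamini-Hochberg. WB1P mouse 10 had no CD26+ library, so that 4 WB1P mice form pairs, and each control replicate is labelled with 2 mouse numbers. Classes of a mouse deviated together (correlation 0.312 to 0.487 in WB1P-Myc mice). With mouse as a block, p-values measure how the CD26 difference varied from mouse to mouse. This spread was estimated from the control, WB1P and WB1P-Myc sums together. Alternatives were DESeq2 1.42.0, its size factors, no filter, no block, single libraries, an En1 term, fewer populations or mice, and a log2 limit of 2.

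Named genes were Dpp4, the 10 genes per direction with the largest fold change and the 10 with the largest difference of mean CPM (mean of at least 10 CPM in the higher class, same direction in all 5 mice, no predicted names), the 5 per direction with the largest difference from NFs, list members that describe their list, and genes named by the study. Gene lists and the comparison were chosen with earlier results of these data known. Lists can share genes, such as Myh11 (contractile and smooth muscle) and Cd55 (complement and progenitor), so their counts are not independent. Fits were tested on simulated counts with 100 genes changed by 1 and 100 by 2 on the log2 scale in WB1P-Myc mice. Of these, 46 and 88 were called in the right direction, with 6 false calls. The simulation changed 200 of 16601 genes and gave WB1P and control mice no CD26 effect, whereas 32.2% of genes were called in the data. Adjusted p-values depend on the share of changed genes, so these numbers do not give the error rates of the real fit. The values of 1 list member are not reported here. TMM factors were 0.891 to 1.15 and the 10 highest genes took 8.39% to 14.6% of a library.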

Additional observations from a re-analysis of the deposited data

Results flagged for a closer look

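Among 5 mice a single value can lie far from the others. The distance of the highest or lowest mouse to its nearest neighbour, divided by the range, passed Dixon's limit in 32 of 338 sets of 5 values (each named gene or marker sum in each CD26 class), and about 1 set in 20, here 16.9, would pass by chance. The value of the outlying mouse is given first and that of its nearest neighbour second. Mouse 21 was such a value 13 times. In CD26- CAFs it was high for Rgs5 (4157 CPM, 2084), Trpc6 (166 CPM, 61.1), Abcc9 (1869.6 CPM, 624), Kcnj8 (270.1 CPM, 110.4), Sparcl1 (2899.6 CPM, 1467), Mylk (609 CPM, 252), Tbx2 (70.5 CPM, 39.2), Tmem273 (71.3 CPM, 17.3) and Serpina1b (61.0 CPM, 21.5), as well as for the summed pericyte markers (9804 CPM, 4637) and skeletal muscle markers (17.9 CPM, 5.12). In CD26+ CAFs it was high for Dcn (3503 CPM, 3040.3) and the summed endothelial markers (197 CPM, 132).

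Mouse 95 was far out 7 times. It was high in CD26- CAFs for Car8 (4.76 CPM, 0.603), Smpd3 (2.66 CPM, 0.716) and Ccn3 (395 CPM, 114), and in CD26+ CAFs for Higd1b (0.529 CPM, 0.0468), Tmem273 (0.302 CPM, 0.0707), Anxa5 (725 CPM, 575) and Itga7 (14.1 CPM, 5.33). Mouse 23 was high for Col10a1 (448 CPM, 59.5) and low for Fgf18 (1.77 CPM, 6.83) in CD26- CAFs, and in CD26+ CAFs high for Nrk (62.6 CPM, 13.2) and Myocd (0.828 CPM, 0.227) and low for Pcolce2 (147 CPM, 269). Mouse 67 was low for Mki67 in CD26- CAFs (72.1 CPM, 122) and high in CD26+ CAFs for Spp1 (459.5 CPM, 116), Notch1 (48.9 CPM, 31.0) and Twist1 (80.6 CPM, 74.2). Mouse 69 was high for Postn in CD26- CAFs (6174 CPM, 5024) and for Megf6 (138 CPM, 44.6) and Itga4 (1.91 CPM, 0.327) in CD26+ CAFs. Leaving out the outlying mouse ended none of the calls between the classes for these genes.

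For 41 of 159 named genes tested, the CD26 difference of WB1P-Myc CAFs differed from that of NFs in edgeR's test of the difference at an adjusted p under 0.05. Of all genes 3.15% did so, 2.07% with a lower and 1.08% with a higher value. Some named genes were chosen for a large difference from NFs and others for a large change between the classes. The count of 41 and its division by sign are therefore descriptions of the chosen genes only. Values are the log2 fold change in CAFs minus that in NFs. In 32 genes it was negative. Mural and contractile genes among these were Trpc6 (-6.46), Rgs5 (-6.26), Myh11 (-6.18), Gja4 (-4.76), Mcam (-4.63), Des (-3.77), Cspg4 (-3.22), Mylk (-2.43), Abcc9 (-2.39) and Myl9 (-2.07). Notch genes were Nrarp (-5.12), Hey2 (-4.49) and Notch3 (-4.34), vessel genes Emcn (-5.81), Esam (-5.04) and Angpt2 (-2.87), and integrin and basement membrane genes Itga1 (-3.36), Lama5 (-3.33), Itga7 (-3.25) and Col18a1 (-1.42). Transcription factors were Tbx20 (-11.40) and Foxc2 (-4.82), and ligands Wnt10b (-3.81), Wnt5a (-1.87) and Pdgfa (-1.79). The others were Stum (-8.17), Adamts16 (-8.16), Spock3 (-8.05), Olfr558 (-7.74), H2-M9 (-5.56), Serpine2 (-2.98) and Cd36 (-1.82). The 9 positive values belonged to Megf6 (4.40), Nrk (4.39), Aqp1 (3.88), Kcnn3 (3.78), Wnt16 (3.77), Cthrc1 (2.18), Wnt2 (2.15), Lox (1.95) and Ptgis (1.87). Leaving out a single control replicate or WB1P-Myc mouse ended the call for 15 of the 41 genes (Abcc9, Angpt2, Cd36, Col18a1, Cspg4, Hey2, Mylk, Nrarp, Nrk, Pdgfa, Ptgis, Tbx20, Trpc6, Wnt10b and Wnt2), with adjusted p between 0.0516 and 0.238, and 23 kept it in every alternative.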

How the results depend on the processing

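Mouse numbers in the titles pair the classes of a mouse, or of a control replicate labelled with 2 mouse numbers. Without the mouse as a block, 3326 genes were called in place of 5346, 1543 higher and 1783 lower in CD26+ CAFs. Among 139 named genes that were called, 11 lost the call without the block (Anxa5, C3, C4b, C7, Ccl7, Ccl8, Cd36, Cd74, Cxcl14, Itgb1 and Megf6), and the difference from NFs was then called for 193 genes and was lost for 12 of 41 named genes, Megf6, Cthrc1 and Trpc6 among them. With only +/+ and -/- libraries it was lost for 9, including Tbx20, Trpc6 and Des. Of the 139 genes, 126 kept their call in all 14 alternative fits, and no named gene changed direction with a call. Some of these genes were picked for a large difference with the same direction in every mouse, which favours a kept call. The count of 126 therefore describes the chosen genes only, and the share of all 5346 calls that was kept is not given here. When only WB1P-Myc sums were fitted, 3745 genes were called, 1791 higher and 1954 lower, and Col3a1 and Loxl3 lost their calls. Without the 2 mice marked 8x8, Col3a1, Cxcl14, Itgb1 and Loxl3 were not called. Cdh5 was called by DESeq2, without the low-count filter and without the block, and Tnc in the fit of WB1P-Myc sums alone. Single libraries as units, with and without an En1 term, added 9 and 8 named genes. Leaving out each WB1P-Myc mouse gave 3954 to 5206 calls, and a log2 limit of 2 left 1241, 339 higher and 902 lower, with 33 and 54 list members in place of 143 and 143.

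For the difference from WB1P CAFs, 0 genes were called in the main analysis, 100 by DESeq2, 33 without the low-count filter, 734 with single libraries, 675 with single libraries and an En1 term, and 1 without the 2 mice marked 8x8. Leaving out each mouse gave 0 to 14, the most without mouse 23. For the difference from NFs, 523 became 1112 by DESeq2, 845 without the filter, 3162 with single libraries, 3028 with the En1 term added and 273 with the log2 limit. Without a control replicate it was 180 (44+46), 279 (49+52) or 292 (82+83), and without a WB1P-Myc mouse 362 to 743. Libraries of a mouse are not independent, so p-values from single libraries are too small. The cause of these changes was not tested.

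A gene that was not called can still differ by less than these 5 mice resolve. The NF values rest on 3 replicates, each labelled with 2 mouse numbers. Every mouse gave its sums from 2 to 4 libraries of differing En1 class, CPM of low genes rest on few counts, and all values are of bulk samples.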
